A study of Mus musculus with 8 samples.

Results

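The 37 genes described here encode the secreted Wnt ligands (19 Wnt genes), their frizzled receptors (10 Fzd genes) and 2 families of secreted inhibitors, the secreted frizzled-related proteins (4 Sfrp genes) and the dickkopfs (4 Dkk genes). They were taken as every gene whose symbol was Wnt, Fzd, Sfrp or Dkk followed by a number and at most 1 letter, out of 18193 genes on the array. Each gene was represented by the probe set with the highest mean level of those that carry its symbol, 1 of 73 probe sets in all. The mouse RefSeq table held 37 genes that meet the rule, and all of them were measured.

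Lung RNA was examined in adult female C57BL/6 mice, 10 to 12 weeks old, after removal of the left lung (pneumonectomy, PNY) or after opening of the chest with the lung left in place (SHAM). Mice of both groups received the same anesthesia, ventilation, antibiotic and buprenorphine for pain, so that SHAM lungs were not those of untouched animals. Lungs were taken at 6 hours and at 1, 3 and 7 days. Equal amounts of tissue of 8 mice were pooled for 1 array in each group at each time point, which gave 4 PNY and 4 SHAM arrays. A p-value over these arrays therefore did not measure the spread between mice. Where it rests on a spread, that spread is the one between pools, mostly of different times.

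Wnt proteins are lipid-modified signals that act over short distances. When a Wnt binds a frizzled receptor and an LRP co-receptor, beta-catenin escapes destruction, enters the nucleus and switches on target genes together with TCF/LEF factors, while other Wnts, such as Wnt5a and Wnt11, mostly signal without beta-catenin, through cell polarity and calcium. Sfrp proteins bind Wnts outside the cell, and Dkk1, Dkk2 and Dkk4 bind the LRP co-receptor. In the lung the pathway is known for roles in the specification of the lung bud and in the exchange between mesenchyme and alveolar type II cells.

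The values are log2 levels from robust multi-array averaging, and a difference of 1 is a fold change of 2. The arrays were alike, with correlations between 0.986 and 0.996. SHAM of 6 hours had a somewhat narrower spread, with quartiles of 4.18 and 8.04. In the other arrays the lower quartile was 4.02 to 4.09 and the upper 8.09 to 8.18. The summed linear level of 6 markers of alveolar type II cells, the surfactant-making cells that define lung tissue, lay between 84678 and 91521 in PNY and between 83624 and 88287 in SHAM. The markers of thymocytes stood apart in 1 array, with summed levels up to 3528 in PNY, reached at 1 day, and up to 1225 in SHAM. The markers of adipocytes stood apart in PNY of 6 hours, with a summed level of 2285, against 703 to 1206 in the other 7 arrays. Of the 37 genes, 23 had a mean level above the median of all probe sets (5.92), as did 66.8% of all genes. For the other 14 a low level could not be told from background, since no detection calls were used here. In whole lung, fewer cells of a type and less RNA per cell cannot be told apart.

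The sequences just upstream of a transcription start are shown for 3 members that were lower at 6 hours than later and for the 1 member that was higher (their values follow). Each is the 250 bases before a start in RefSeq (GRCm38.p6), written 5′ to 3′ in the direction of the gene, for Sfrp2 (chr3:83766071-83766320, plus strand), Wnt2 (chr6:18030446-18030695, minus strand), Fzd1 (chr5:4758217-4758466, minus strand) and Fzd4 (chr7:89404116-89404365, plus strand). The windows of Sfrp2 and Wnt2 lie inside the span that RefSeq gives the gene, downstream of its 5′ end. Capitals mark matches on either strand to any of 8 motifs, which were the TCF/LEF core CTTTGAT, its variant CTTTGTT, the TATA box TATAAA, the TEAD site GGAATG, the CCAAT box CCAAT, the GC box GGGCGG, the AP-1 site TGANTCA and the E box CACGTG. Matches of the GC box can overlap each other.
Sfrp2: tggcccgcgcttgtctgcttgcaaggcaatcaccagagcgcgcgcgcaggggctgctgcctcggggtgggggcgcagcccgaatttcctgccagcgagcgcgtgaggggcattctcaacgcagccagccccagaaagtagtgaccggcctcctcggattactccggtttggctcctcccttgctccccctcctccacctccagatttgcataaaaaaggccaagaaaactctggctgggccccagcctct
Wnt2: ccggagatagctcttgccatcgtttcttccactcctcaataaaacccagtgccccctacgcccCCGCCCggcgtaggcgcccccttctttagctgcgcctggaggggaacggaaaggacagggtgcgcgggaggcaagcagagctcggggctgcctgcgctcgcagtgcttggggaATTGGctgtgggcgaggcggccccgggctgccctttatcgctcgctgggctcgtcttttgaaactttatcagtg
Fzd1: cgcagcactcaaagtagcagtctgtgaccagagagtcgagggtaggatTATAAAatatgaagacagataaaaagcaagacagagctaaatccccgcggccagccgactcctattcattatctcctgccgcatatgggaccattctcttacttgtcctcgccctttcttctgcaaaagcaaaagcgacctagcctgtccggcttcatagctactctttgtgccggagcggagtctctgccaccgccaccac
Fzd4: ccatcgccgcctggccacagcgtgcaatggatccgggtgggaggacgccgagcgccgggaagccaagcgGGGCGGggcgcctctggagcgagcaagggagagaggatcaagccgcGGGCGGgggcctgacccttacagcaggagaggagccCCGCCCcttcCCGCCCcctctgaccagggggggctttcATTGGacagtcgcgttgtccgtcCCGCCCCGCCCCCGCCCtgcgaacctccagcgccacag

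Fzd4 held 7 GC boxes and a CCAAT box, Wnt2 1 of each, Fzd1 a TATA box far upstream (bases -202 to -197 from the start), and Sfrp2 none of the 8 motifs. The windows had 16 CpG pairs in Sfrp2, 20 in Wnt2, 12 in Fzd1 and 25 in Fzd4. The median was 6 over 32851 promoters and 22 over the promoters of members, so a high count was not particular to these 4 genes. RefSeq windows were at hand for 25 members (28 promoters). Of these 28 promoters, 71.4% held a GC box, as did 32.7% of all promoters, and 35.7% held a CCAAT box, as did 33.8% of all. The TCF/LEF core was present in 7.14% (Wnt11 and Wnt5b) beside 3.21% of all promoters, its variant in 7.14% (Dkk1 and Fzd7) beside 5.03%, and the TATA box in 14.3% beside 12.4%. The AP-1 site was present in 3.57% beside 6.75%, the E box in 7.14% beside 6.02%, and the TEAD site in 0 of 28 beside 12.6%. A match is a stretch of letters and was not tested as a binding site.

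The widest differences among the 37 genes lay between 6 hours and the later time points, and were seen in both surgeries. The Wnt inhibitor Sfrp2, the lung mesenchymal ligand Wnt2, the receptors Fzd2 and Fzd1 and the ligands Wnt3a, Wnt5a and Wnt7a were lower at 6 hours than at 1, 3 and 7 days, and the receptor Fzd4 was higher. This comparison asks how the level shortly after surgery of either kind differed from that over the following week. No array of unoperated mice was made, so a fall after surgery and a later rise cannot be told apart. It was fitted in limma over all probe sets, with surgery as a second term, 2 arrays of 6 hours and 6 later arrays. At an adjusted p (Benjamini-Hochberg) under 0.05, 7 of 37 members (18.9%) were lower at 6 hours and 1 (2.70%) was higher, beside 7.01% of all genes lower and 3.16% higher. All 8 had a mean level above the median, and among genes above it, a background added after the data were seen, 9.69% were lower and 3.94% higher. The median over all 37 members, called or not, was -0.08, beside -0.01 over all genes. Most members therefore lay near the middle of the array, and a few stood far from it.

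**Figure D1:**
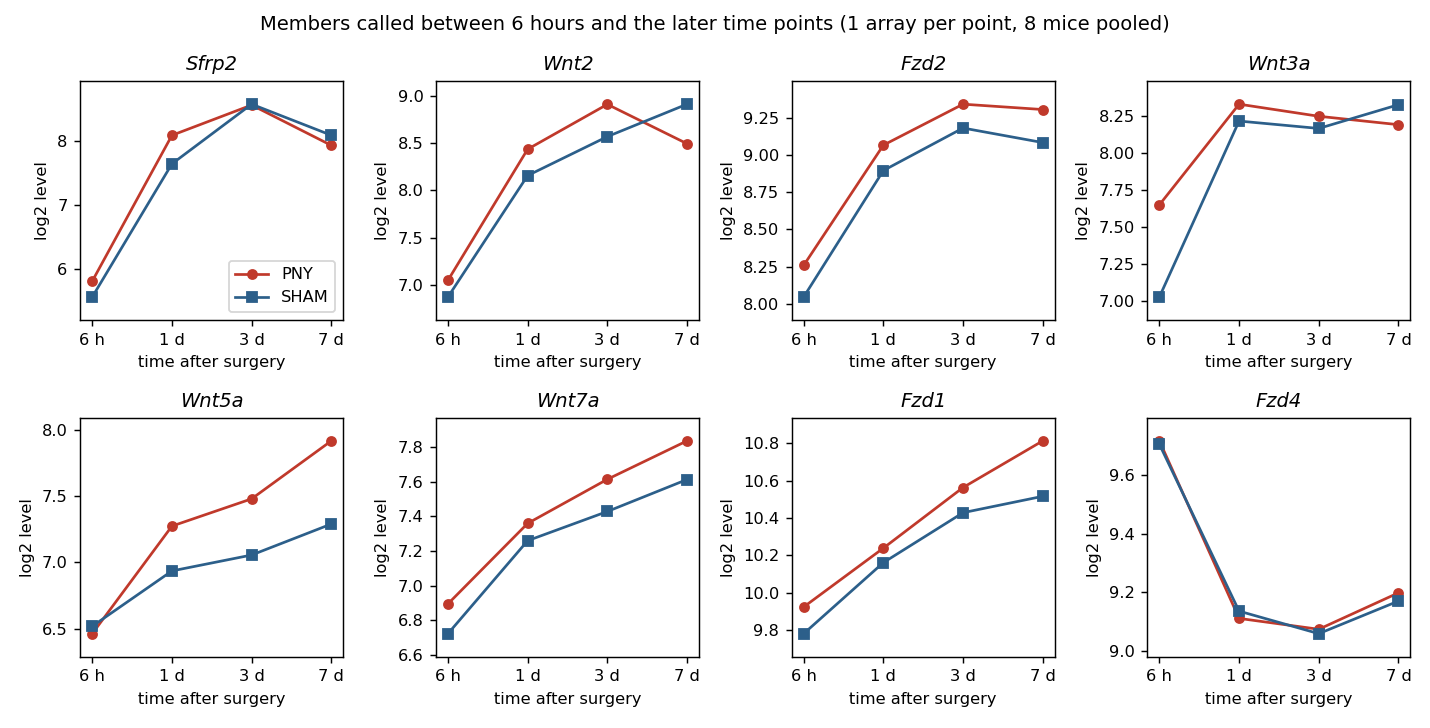
Log2 level (vertical axis) of the 8 genes that passed the test between 6 hours and later, at each time after surgery (horizontal axis), in PNY (red circles) and SHAM (blue squares), with 1 array of 8 pooled mice per point. Sfrp2 lay at 5.81 in PNY and 5.56 in SHAM at 6 hours and at 7.65 or above in every later array, and Fzd4 ran the other way.

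Wherever 4 values of a surgery are given, they stand in the order 6 hours, 1, 3 and 7 days. Among the ligands, Wnt2, which the lung mesenchyme makes, had log2 levels of 7.05, 8.44, 8.91 and 8.50 in PNY lungs, against 6.87, 8.16, 8.57 and 8.92 in SHAM lungs. Both arrays of 6 hours lay more than 1 log2 unit below all 6 later ones. The difference of 6 hours minus later was -1.62 ± 0.19 (SE), a 3.08-fold lower level (limma, adjusted p = 0.0026).

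Wnt3a, a ligand of the beta-catenin branch, measured 7.65, 8.33, 8.25 and 8.19 in PNY lungs, against 7.03, 8.22, 8.17 and 8.33 in SHAM lungs. The later arrays lay within a narrow band, and the SHAM array of 6 hours lay furthest below it. The difference was -0.91 ± 0.14 (SE), or 1.88-fold lower (limma, adjusted p = 0.0060). Wnt2 and Wnt3a had 1 probe set each.

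Wnt5a, a ligand known from the distal lung mesenchyme that mostly signals without beta-catenin, had levels of 6.46, 7.27, 7.48 and 7.91 in PNY lungs, against 6.52, 6.94, 7.05 and 7.29 in SHAM lungs. The level was higher at each later time point than at the one before, in both surgeries. At 6 hours it lay 0.83 ± 0.18 (SE) below the later arrays, or 1.78-fold lower (limma, adjusted p = 0.028). Another 2 probe sets of Wnt5a gave differences of -0.83 (limma, adjusted p = 0.0039) and -0.81 (adjusted p = 0.029), while the one left, at a mean level of 3.68, gave 0.03 (adjusted p = 0.93).

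Wnt7a, the ligand that sets the dorsal side of the limb, had 6.89, 7.36, 7.61 and 7.83 in PNY lungs, against 6.72, 7.26, 7.43 and 7.61 in SHAM lungs. It too was higher at each later step in both surgeries. Its difference at 6 hours was -0.71 ± 0.14 (SE), 1.63-fold lower (limma, adjusted p = 0.018). The other probe sets of Wnt7a did not pass the test, with differences of 0.22 (adjusted p = 0.38) and -0.09 (adjusted p = 0.73), so the call rests on 1 probe set, and with the mean of the gene's probe sets the difference was -0.19 (adjusted p = 0.17).

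Among the receptors, Fzd2 had levels of 8.26, 9.07, 9.34 and 9.30 in PNY lungs, against 8.05, 8.90, 9.18 and 9.08 in SHAM lungs. The 6-hour array was by far the lowest of each surgery. The difference was -0.99 ± 0.11 (SE), or 1.99-fold lower (limma, adjusted p = 0.0024), and the other probe sets of Fzd2 gave -0.94 (adjusted p = 0.0067) and -1.23 (adjusted p = 0.0012).

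Fzd1 had 9.92, 10.24, 10.56 and 10.81 in PNY lungs, against 9.78, 10.16, 10.43 and 10.52 in SHAM lungs. As in Wnt5a and Wnt7a, every later value exceeded the one before it. The difference at 6 hours was -0.60 ± 0.15 (SE), 1.52-fold lower, close to the threshold (limma, adjusted p = 0.047), and the other probe set of Fzd1 missed it with -0.43 (adjusted p = 0.10). Fzd4, the receptor through which norrin acts on retinal vessels, ran opposite, with 9.72, 9.11, 9.07 and 9.20 in PNY lungs, against 9.70, 9.14, 9.06 and 9.17 in SHAM lungs. PNY and SHAM differed by 0.03 or less at every time point. Its level was 0.59 ± 0.09 (SE) higher at 6 hours than later (limma, adjusted p = 0.0064). Of its other probe sets, 1 was 0.82 higher (adjusted p = 0.034) and 1 was 0.74 higher and missed the threshold (adjusted p = 0.069).

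The inhibitor Sfrp2, a secreted Wnt-binding protein of fibroblasts, had levels of 5.81, 8.10, 8.57 and 7.94 in PNY lungs, against 5.56, 7.65, 8.58 and 8.10 in SHAM lungs. No other member moved as far. Both 6-hour arrays lay below the median level of the array and all 6 later arrays above it. The difference was -2.47 ± 0.23 (SE), a 5.55-fold lower level at 6 hours (limma, adjusted p = 0.0011).

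The calls at 6 hours lean on 2 arrays. Most of the calls were lost when either of them was left out. Without the PNY and without the SHAM array of 6 hours the differences of Sfrp2 were -2.55 and -2.39. The differences of the 8 genes kept their sign in both fits. For Wnt3a the value without the SHAM array of 6 hours was -0.61. For Wnt5a it was -0.57 without the PNY array and -1.09 without the SHAM array. Differences of the other calls that were lost stayed about as large. Without the PNY and without the SHAM array they were -1.68 and -1.57 in Wnt2, and -1.01 and -0.98 in Fzd2. Those of Wnt7a were -0.71 and -0.71, of Fzd1 -0.59 and -0.62, and of Fzd4 0.58 and 0.59. Such a fit has 1 array at 6 hours and cannot show the spread there.

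Of the 29 members that did not pass, Fzd7, a receptor of intestinal stem cells, came closest, with 8.96, 9.23, 9.21 and 9.35 in PNY lungs, against 8.90, 9.26, 9.50 and 9.46 in SHAM lungs. Both 6-hour arrays were the lowest of their surgery, and the difference was -0.41 ± 0.11 (SE; limma, adjusted p = 0.051). Dkk2 had a difference of -0.54 ± 0.16 (SE; adjusted p = 0.076) at low levels, and Fzd3, a polarity receptor, one of -0.41 ± 0.13 (SE; adjusted p = 0.088). The other 26 lay between -0.48 (Sfrp1) and 0.40 (Wnt9b), with adjusted p-values of 0.12 or more.

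**Figure D2:**
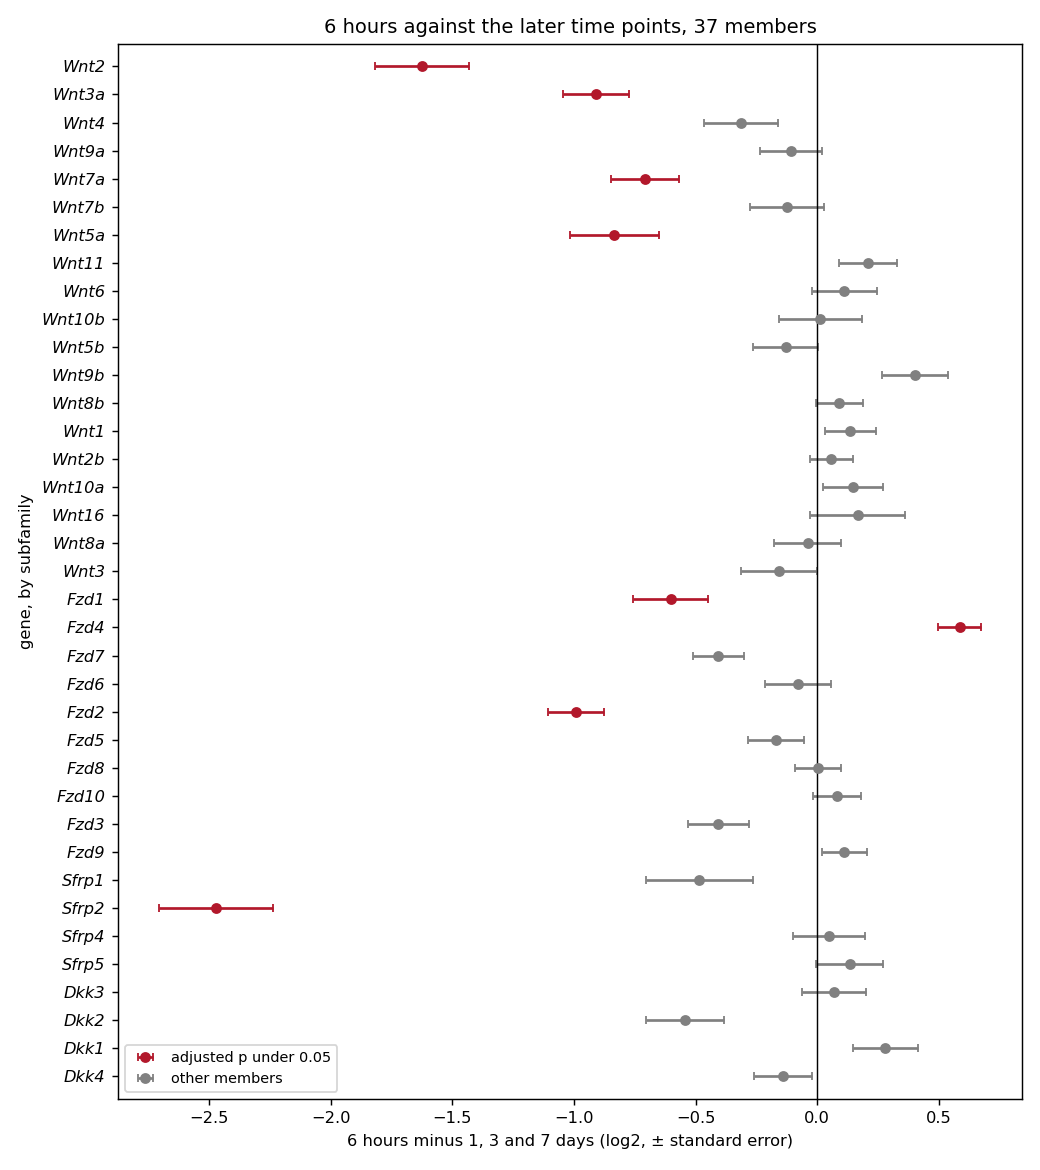
Difference of 6 hours minus 1, 3 and 7 days in log2 units (horizontal axis) for each of the 37 genes, by subfamily (vertical axis), with the standard error of the limma fit as bars. Red points passed an adjusted p under 0.05, with 7 genes to the left of 0, from Fzd1 at -0.60 to Sfrp2 at -2.47, and Fzd4 at 0.59 to the right.

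Some markers of several cell types differed at 6 hours along with these genes, beside 7.01% of all genes lower and 3.16% higher. Of 12 fibroblast markers, 4 were lower (Col1a1, Col3a1, Tcf21 and Mfap5) and 0 higher, and their summed linear level was 30005 in PNY and 27184 in SHAM at 6 hours, against 31154 to 35901 in the later arrays. Of 8 markers of mesothelium, the lining of the lung surface, 2 were lower (Lrrn4 and Gpm6a), with sums of 6389 in PNY and 5224 in SHAM at 6 hours against 7721 to 10770 later. Of 5 neutrophil markers 2 were higher, with sums of 17564 and 16292 at 6 hours in PNY and SHAM against 3402 to 11644 later. Of the B cell markers 4 of 5 were lower. The single lower genes among 7 endothelial and among 11 thymocyte markers are no result about those cells. None of the measured markers of smooth muscle, alveolar type II, type I, club or ciliated cells, T cells, alveolar macrophages, adipocytes, striated muscle or dividing cells passed. The part of any of these cell types in the differences of the 8 genes was not tested.

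The rest of the pathway was measured through 88 other genes in 8 lists of roles. At 6 hours 8 of them (9.09%) were lower and 4 (4.55%) higher, beside 7.01% and 3.16% of all genes, and their median was -0.04. These shares lay near those of all genes and are no result about the pathway. The R-spondins, secreted proteins that strengthen Wnt signals by sparing the receptors, held 2 of the lower genes. Rspo1 had 7.11, 8.47, 8.68 and 8.05 in PNY lungs, against 6.53, 8.36, 8.78 and 8.32 in SHAM lungs, a difference of -1.62 (limma, adjusted p = 0.0033). As with Sfrp2, both 6-hour arrays lay far below all later ones. Rspo3 had a difference of -0.65 (adjusted p = 0.031), and the other 7 genes of that list did not pass.

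Among 13 other extracellular modulators Cthrc1, a matrix protein that favours the polarity branch, was 1.48 lower in log2 units at 6 hours (limma, adjusted p = 0.0053) and the matricellular protein Tinagl1 was 1.05 higher (adjusted p = 0.0053). None of 6 co-receptors and alternative receptors and none of 4 genes of Wnt maturation and secretion passed. Of 23 cytoplasmic transducers, Dact3, which binds dishevelled, had a difference of -0.84 (adjusted p = 0.0093) and the feedback inhibitor Nkd1 one of 0.40 (adjusted p = 0.032). Of 12 nuclear factors the co-repressor Tle1 was higher by 0.84 (adjusted p = 0.0015) and the beta-catenin antagonist Cby1 had a difference of -0.38 (adjusted p = 0.046). Of 12 polarity genes Prickle1 had -0.78 (adjusted p = 0.013).

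Among 17 target genes of the beta-catenin branch, 2 were lower at 6 hours, Ccn5, a matricellular protein, with -1.74 (limma, adjusted p = 0.0023) and the receptor Tnfrsf19 with -0.86 (adjusted p = 0.0044). Another 2 were higher, Myc, a driver of growth, with 0.49 (adjusted p = 0.038) and Nkd1, also counted above. Axin2, the feedback inhibitor most used as a readout of this branch, had a difference of -0.09 (adjusted p = 0.68), and the factor Lef1 one of -0.24 (adjusted p = 0.37); both were singled out after their values were seen. The target list thus held genes on both sides of 0, and its median was -0.24.

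**Figure D3:**
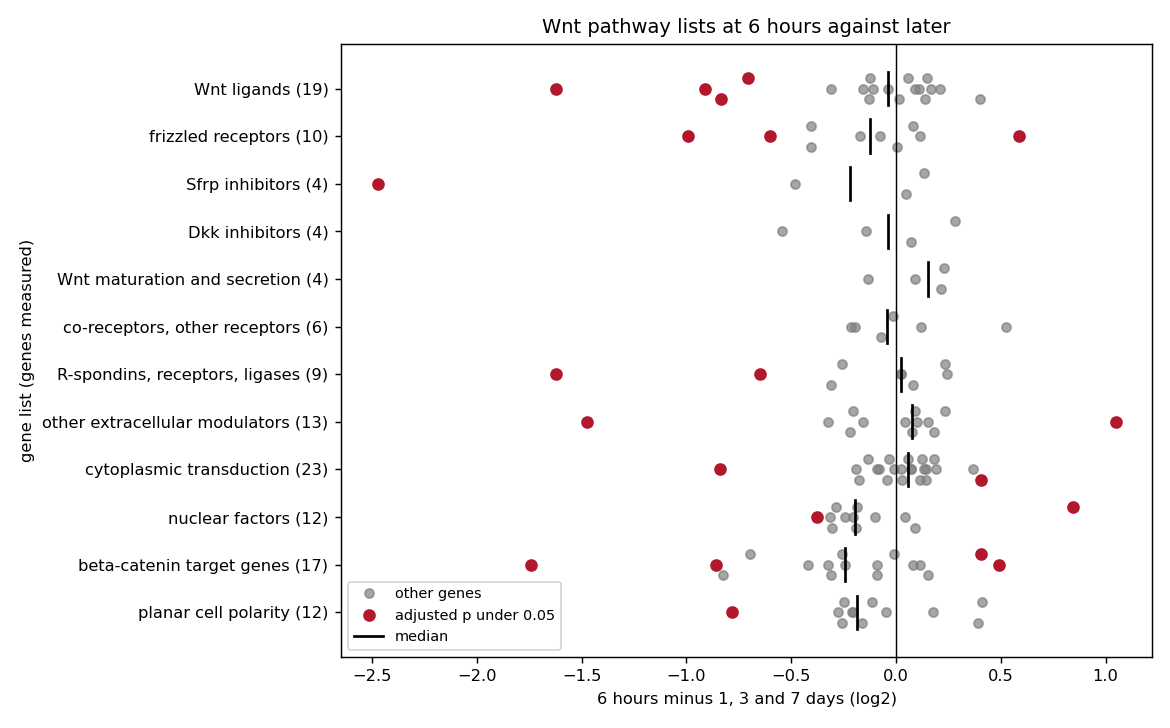
Difference of 6 hours minus 1, 3 and 7 days in log2 units (horizontal axis) for the 4 subfamilies and 8 lists of other Wnt pathway genes (vertical axis, genes measured in brackets), with list medians as black bars and genes past an adjusted p under 0.05 in red. Rspo1 at -1.62, Cthrc1 at -1.48 and Ccn5 at -1.74 stood far to the left of their lists, and Tinagl1 at 1.05 to the right.

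Between PNY and SHAM over the 4 time points the members differed little, and none passed the test. This comparison asks which genes responded to the loss of the left lung beyond the surgery itself. By rank products (P-value below 0.001 together with a 1.5-fold change or more), 0 of 37 members were higher in PNY and 0 lower, beside 0.506% of all genes higher and 0.0605% lower. In limma no member passed either, with adjusted p-values of 1.00 throughout. An unadjusted p under 0.05 was found in 0 of 37 members, beside 395 of 18193 genes. With the time point as a block 4 of 37 had one (Sfrp1, Wnt5a, Dkk2 and Fzd2), beside 1074 of 18193 genes. None of these 4 passed after adjustment (limma with the block, lowest adjusted p = 0.88). Mean differences ran from -0.24 (Wnt8a) to 0.38 (Sfrp1), with a median of 0.04 beside 0.01 over all genes. The lowest rank product P was that of Sfrp2, 0.0045 for higher and 0.012 for lower, at a mean difference of 0.13. Most array pairs cross time points, so a gene that varies with time can get a low P in both directions.

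The secreted inhibitor Sfrp1 had the highest mean difference. Its levels were 7.71, 7.61, 8.06 and 8.30 in PNY lungs, against 7.03, 7.29, 7.89 and 7.98 in SHAM lungs. PNY lay above SHAM at each time point, by 0.68, 0.32, 0.17 and 0.33, while the ranges of the surgeries overlapped, since both surgeries had their highest value at 7 days. The mean difference was 0.38 ± 0.21 (SD of the 4 differences; rank products, P = 0.0067, exact permutation p = 0.23 for the unpaired arrays). Of the other 4 probe sets of Sfrp1, those with means of 7.62, 7.10 and 5.97 gave 0.23, 0.12 and 0.14, and the one with a mean of 6.96 gave -0.01. The average over its probe sets was 0.17. Without SHAM of 6 hours the mean difference was 0.20 and without PNY of 7 days 0.25.

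Wnt5a differed from SHAM by -0.06, 0.34, 0.42 and 0.63 at the successive time points, from the levels given above. The PNY array was the higher at 1, 3 and 7 days and about equal at 6 hours. The mean difference was 0.33 ± 0.29 (SD of 4), a fold change of 1.26 (rank products, P = 0.0069, exact permutation p = 0.40 for the unpaired arrays). The change of this difference between the early and the late pair of time points did not pass (limma interaction, 0.38 ± 0.40 SE, unadjusted p = 0.36). Leaving out 1 array moved the mean difference to 0.12 (without PNY of 7 days), 0.19 (without SHAM of 6 hours) or 0.61 (without PNY of 6 hours). The other probe sets of Wnt5a, with means of 6.65, 6.25 and 3.68, gave -0.03, 0.18 and -0.14, and the average over its probe sets gave 0.09.

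In 7 members (18.9%) the PNY array lay above the SHAM array each time, beside 9.36% of all genes, namely Sfrp1, Fzd2, Fzd1, Fzd5, Wnt7a, Wnt9a and Dkk2. Wnt8a alone (2.70%) was lower at all 4, beside 5.94% of all genes. The pattern held for the probe sets used. Of 11 other probe sets of these genes (Dkk2 had none), 1 of Sfrp1 lay above SHAM each time, and that of Wnt9a had a mean difference of -0.22. The differences of Fzd2 were 0.19 ± 0.03 (SD of 4), while its other probe sets gave 0.26 ± 0.33 and 0.16 ± 0.24, each highest at 6 hours. Those of Wnt7a were 0.17 ± 0.05, against 0.02 ± 0.12 and 0.11 ± 0.22 for its other probe sets. For Fzd1 they were 0.16 ± 0.09 and for Dkk2, an LRP-binding inhibitor at low levels, 0.21 ± 0.12. None of the members had all 4 PNY arrays above all 4 SHAM arrays, beside 0.857% of all genes.

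Wnt8a, a ligand of the early embryo, was the 1 member (beside 0.726% of all genes) with all 4 PNY arrays below all 4 SHAM arrays. It had 3.28, 3.07, 3.34 and 3.23 in PNY lungs, against 3.36, 3.78, 3.38 and 3.36 in SHAM lungs, far below the median level of the array. The SHAM array of 1 day was the highest and the PNY array of 1 day the lowest, and at the other time points PNY and SHAM differed by 0.13 at most. The exact permutation test (two-sided, 70 splits) gave its smallest possible p of 0.029. Any gene with this order of the arrays has that p, so it adds nothing to the pattern. In limma the unadjusted p was 0.073.

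At single time points, where 1 array stood for each group and no test could be made, 4 members lay past a fold change of 1.5. At 6 hours Sfrp1 (0.68) and Wnt3a (0.62) were higher in PNY, 2 of 37 beside 0.682% of all genes, and 0 were lower beside 1.04%. The PNY array of these differences is the one with the high adipocyte markers (median PNY minus SHAM 0.51). The SHAM array is the one with the narrower spread, and it was the lowest of the 8 in Sfrp1 and in Wnt3a. The median difference at 6 hours was 0.14 over the 23 members above the median level and -0.09 over the other 14. Over all genes it was 0.02. The part of either array in these differences was not tested. At 1 day 0 members were higher beside 1.88% of all genes and Wnt8a (-0.71) was lower, 1 of 37 beside 1.09%. At 3 days none lay past it, beside 1.14% of all genes higher and 0.511% lower. At 7 days Wnt5a (0.63) was higher, 1 of 37 beside 1.98%, and 0 were lower beside 1.48%.

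**Figure D4:**
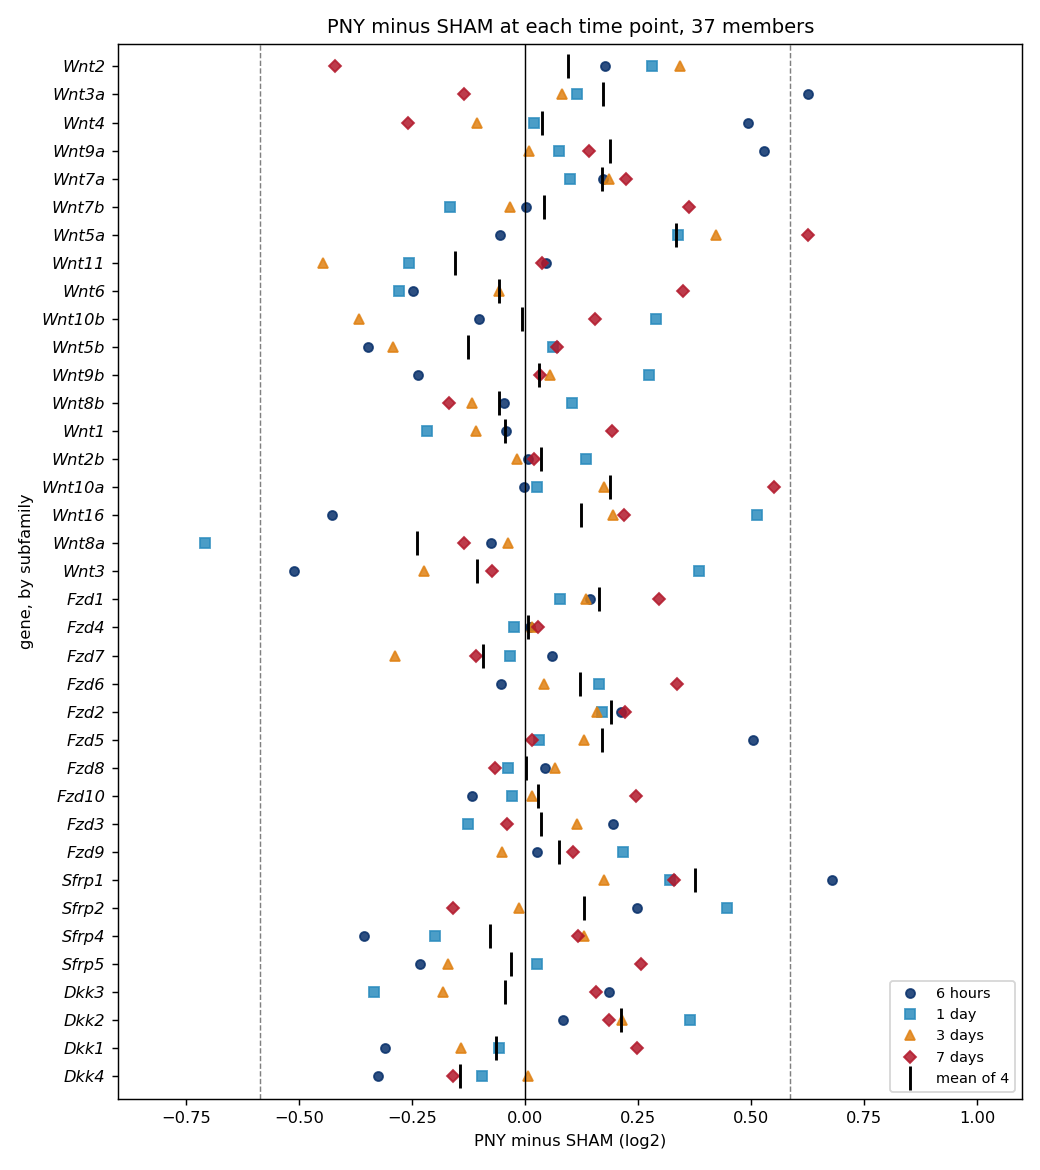
PNY minus SHAM in log2 units (horizontal axis) for each of the 37 genes by subfamily (vertical axis), with 1 symbol per time point and the mean as a black bar. Dashed lines mark a fold change of 1.5, which Sfrp1 and Wnt3a passed at 6 hours (0.68 and 0.62), Wnt8a at 1 day (-0.71) and Wnt5a at 7 days (0.63).

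Markers of dividing cells were higher in PNY over the same arrays (rank products, 8 of 8 markers, summed levels 983 to 3985 in PNY and 811 to 1246 in SHAM). So were 2 of 10 striated muscle, 1 of 10 smooth muscle and 1 of 11 thymocyte markers, beside 0.506% of all genes. None of 12 fibroblast and none of 8 mesothelial markers passed. None of the 88 other pathway genes passed the rank product threshold, and their median mean difference was 0.02. Those with the highest mean differences were the target genes Ccn5, at 0.49 ± 0.35 (SD of 4), and Ccn4, at 0.47 ± 0.21, both matricellular proteins, followed by Cthrc1 at 0.26 ± 0.19 and the cell cycle gene Ccnd1 at 0.23 ± 0.05. The furthest below SHAM was Dact2, which acts on dishevelled, with -0.21 ± 0.11. The study's own rank product list, made at the same thresholds, did hold Ccn4, under the name Wisp1, as higher in PNY. The probe set used here did not reach them.

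The remaining ligands above the median level showed no difference that passed a test. Wnt4, known from the kidney and the female reproductive tract, had 8.01, 8.01, 8.17 and 7.86 in PNY lungs, against 7.51, 7.98, 8.28 and 8.12 in SHAM lungs. Its SHAM array of 6 hours was the lowest of the 8. Wnt9a, a ligand of forming joints, had 7.84, 7.85, 7.67 and 7.66 in PNY lungs, against 7.32, 7.77, 7.66 and 7.52 in SHAM lungs, and here too the SHAM array of 6 hours was low.

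Wnt7b, which the lung epithelium makes during development, had 7.20, 7.01, 7.44 and 7.59 in PNY lungs, against 7.19, 7.17, 7.48 and 7.22 in SHAM lungs. The surgeries overlapped, and PNY of 7 days was the highest. Wnt11, a ligand of the polarity branch, had 7.07, 6.65, 6.60 and 6.92 in PNY lungs, against 7.02, 6.91, 7.05 and 6.88 in SHAM lungs, with PNY of 1 and 3 days lowest. Wnt6 had 5.93, 5.74, 6.01 and 6.08 in PNY lungs, against 6.17, 6.02, 6.06 and 5.73 in SHAM lungs, with no order between the surgeries. At no time point did PNY and SHAM differ by more than 0.53 in any of these 5 ligands.

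The other ligands were Wnt1, Wnt2b, Wnt3, Wnt5b, Wnt8a (above), Wnt8b, Wnt9b, Wnt10a, Wnt10b and Wnt16, at or below the median level. With Dkk1, Dkk2, Dkk4 and Fzd9 they made up the 14 low members, whose values lay between 2.58 (Wnt3 in PNY of 6 hours) and 6.17 (Wnt10b in SHAM of 3 days). Their PNY minus SHAM differences ran from -0.71 (Wnt8a) to 0.55 (Wnt10a at 7 days). Their median mean difference was -0.02. The 23 members above the median level had a median of 0.04, beside 0.01 over all genes.

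Of the remaining receptors, Fzd6, which acts in tissue polarity, had 9.03, 9.08, 9.11 and 9.50 in PNY lungs, against 9.09, 8.91, 9.07 and 9.16 in SHAM lungs. The PNY array of 7 days stood above the other 7. Fzd5, a receptor needed in the yolk sac, had 8.32, 8.31, 8.26 and 8.25 in PNY lungs, against 7.82, 8.28, 8.13 and 8.23 in SHAM lungs, with SHAM of 6 hours lowest. Fzd8 had 7.91, 7.80, 7.91 and 7.92 in PNY lungs, against 7.87, 7.84, 7.85 and 7.99 in SHAM lungs, the narrowest range of the receptors given here. Fzd10 had 6.88, 6.88, 6.83 and 6.99 in PNY lungs, against 7.00, 6.91, 6.82 and 6.75 in SHAM lungs, and Fzd3 had 6.65, 6.74, 7.03 and 7.08 in PNY lungs, against 6.46, 6.86, 6.92 and 7.12 in SHAM lungs. In neither did the surgeries separate.

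Over all 10 receptors the mean differences ran from -0.09 (Fzd7) to 0.19 (Fzd2), with Fzd8 at 0.002. The subfamily medians were 0.06 for Fzd, 0.04 for Wnt, 0.05 for Sfrp and -0.05 for Dkk. A further probe set of Fzd4, with nearly the same mean level (9.19) as the one used (9.27), gave a mean difference of -0.33 ± 0.36 (SD of 4). Its levels were 9.62, 9.30, 8.86 and 8.32 in PNY lungs, against 9.87, 9.33, 9.05 and 9.16 in SHAM lungs. The PNY array of 7 days was its lowest, so that the Fzd4 probe sets did not give the same picture of the surgeries.

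The other inhibitors above the median level were Sfrp4, Sfrp5 and Dkk3. Sfrp4 had 7.14, 6.98, 7.47 and 7.39 in PNY lungs, against 7.50, 7.18, 7.34 and 7.28 in SHAM lungs, with PNY below SHAM at 6 hours and 1 day and above it afterwards. Its late minus early change of that difference had an unadjusted p of 0.091 (limma interaction, 0.40 ± 0.21 SE), the lowest of the 37. Sfrp5 had 6.42, 6.24, 6.43 and 6.61 in PNY lungs, against 6.66, 6.22, 6.60 and 6.35 in SHAM lungs. Dkk3, a divergent dickkopf that is not known to block the LRP co-receptor as the others do, had 9.43, 9.06, 9.30 and 9.26 in PNY lungs, against 9.24, 9.39, 9.49 and 9.10 in SHAM lungs. In both the surgeries overlapped throughout.

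The 3 and 7 day arrays were also set against those of 6 hours and 1 day, to see which genes were higher or lower in the later part of the week. No member passed (limma, 0 of 37 higher and 0 lower, beside 0.0165% and 0.0055% of all genes), while 11 of 37 had an unadjusted p under 0.05, all of them higher late, beside 2720 of 18193 genes in either direction. Sfrp1 came closest, 0.65 ± 0.11 (SE) higher late (limma, adjusted p = 0.13), a fold of 1.57. Fzd1 followed with 0.55 ± 0.13 (SE; adjusted p = 0.18). The early arrays of Sfrp2 differed widely among themselves, and its late minus early difference of 1.52 ± 0.56 (SE) did not pass (adjusted p = 0.29).

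After the values had been seen, the members whose level rose at each step in both surgeries were counted. These were 5 (Wnt5a, Wnt7a, Fzd1, Fzd3 and Dkk2), or 13.5%, beside 2.61% of all genes, with no test. None of 11 other probe sets of these genes showed the pattern. Whether the course over time differed between PNY and SHAM was examined by the interaction in limma, in which no member passed (0 of 37, beside 0% of all genes, and 0 of 37 with an unadjusted p under 0.05, beside 448 of 18193 genes with one).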

How the data were processed

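Lung RNA of 8 pools of 8 mice was measured on Affymetrix Mouse Genome arrays, 4 PNY and 4 SHAM. The authors made the deposited log2 values with RMA (background correction, quantile normalization and 1 value per probe set; version not given in the sources used here), which pulls the arrays to like distributions. From these, 64 control probe sets were left out and 45037 tested, with no filter. PNY and SHAM were compared by rank products as in the study's methods (time points as replicates, 16 array pairs, 1000 permutations, coded in Python 3.11.15) and with limma 3.58.1 in R 4.3.3, which also gave the comparisons of times. Time points pair the arrays by design. The deviations of PNY and SHAM from their means correlated over probe sets within each time point (r of 0.605, 0.357, 0.302 and 0.295 from 6 hours to 7 days), and a fit with time point as a block was run as well. Both tests were tested on simulated data. The number of arrays limits the precision. Each member is named, with all 8 values where it passed a test, lay past a fold change of 1.5 at a time point or had a mean above the median, and from each list of other pathway genes those past a test and up to 3 with the largest mean difference. The members and lists were chosen with earlier results of these data known. Probe-level values were not used here.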

Additional observations from a re-analysis of the deposited data

Results flagged for a closer look

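Each surgery's 4 values of each of the 37 genes were checked for an array apart from the other 3 by Dixon's gap test, which made 74 checks, of which 5 were past the critical value at the 95% level. Chance passes about 1 in 20, and the 4 arrays of a surgery are of different times. Wnt3a was low in SHAM of 6 hours at 7.03, against 8.17 to 8.33 in the other SHAM arrays. Wnt8a was high in SHAM of 1 day at 3.78, against 3.36 to 3.38 in the others, and its difference past a fold change of 1.5 was the one with this array. Fzd6 was high in PNY of 7 days at 9.50, against 9.03 to 9.11. Wnt7b was high in SHAM of 3 days at 7.48, against 7.17 to 7.22. Fzd8 was low in PNY of 1 day at 7.80, against 7.91 to 7.92, a gap of small size.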

How the results depend on the processing

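Of 310 values under an alternative, 272 were labelled the same, 0 reversed and 38 otherwise changed. Many are counts of members, labelled the same when equal or within 1.5-fold, and a count cannot change sign. Counts of 0 that stayed at 0 are among them, so the total says little about how firm a result is. The PNY minus SHAM differences of Sfrp1 (0.17 to 0.52) and Wnt5a (0.09 to 0.61) were labelled the same throughout. The comparison of PNY with SHAM over 4 time points had 0 members in either direction under all alternatives run, which were other scalings, the level filter, the mean of probe sets, other thresholds, limma with or without the time point as a block (0 members under the block), and each array or time point left out. Without either 6-hour array most of the calls at 6 hours were lost, as given above. With 1 of the later arrays left out, between 5 and 9 members were lower at 6 hours and 1 was higher. The shares of all genes in these fits were not counted. Apart from the 6-hour arrays, Wnt5a missed the threshold without PNY of 3 days (adjusted p = 0.059) or SHAM of 7 days (0.064), and Fzd1 without either array of 3 or 7 days (0.060 to 0.095) or after a second quantile normalization (0.052). At a fold change of 1.3, 5, 3, 1 and 2 members lay higher in PNY at the successive time points, and 2, 1, 1 and 1 lower. At a fold change of 2 all these counts were 0. The shares of all genes at 1.3 and at 2 were not counted, so these counts are no result about the members. With probe sets averaged per gene, 1 member was 1.5-fold higher at 6 hours and 0 at 7 days, and with probe sets above the median level only, 0 were lower at 1 day. Depth has no counterpart here, and signal over background was not used here, so low members carry the least firm values.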
